A study of Danio rerio with 18 samples.

Results

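The genes described here encode hormones that control calcium in the body, relatives of these hormones, and receptors that sense calcium or the hormones. They are stc1l, stc2a, casr, pth1a, pth1b, pth2, calca, calcr, vdra and vdrb, called calcium genes below. They were chosen by symbol, and 9 of the 10 symbols were found among 25581 genes listed in whole-body RNAseq tables of zebrafish (vdra was not analysed here). Each library came from a pool of whole larvae, and 3 libraries per genotype were compared at 45 hours post-fertilization (hpf) and in the table deposited for 4 days post-fertilization (dpf). The mutants were homozygous for sox10 ci3020, an allele that lacks the first coding exon and some of the 5′UTR before it but is still transcribed, and the wild types were stage-matched controls from related clutches. Pools held 10 to 15 mutants and 10 to 25 wild types at 45 hpf, and 10 to 12 mutants and 10 to 15 wild types at 4 dpf. All 25896 lines of the 4 dpf table are repeated in 6 of 6 libraries in the table deposited for 7 dpf, so its values are given under the 4 dpf label and the stage at which they were measured cannot be told from the tables.

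Fish take up calcium from the water through ionocytes of the skin and gills. Stanniocalcin 1, released mainly by the corpuscles of Stannius beside the kidney, limits this uptake, whereas parathyroid hormones and active vitamin D promote it. Calcitonin lowers calcium in mammals, and the calcium-sensing receptor reads the extracellular calcium level and thereby sets the release of several of these hormones.

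Levels are in TPM, a measure of transcript abundance corrected for length, in which the values of any library add up to the same total before genes are selected. The depth behind a TPM is not known, so precision rests on the spread between libraries, and p-values measure only that spread. Differences were tested with limma on log2(TPM + 1) across every gene that reached 1 TPM in 3 or more of the 6 libraries of a table, with Benjamini-Hochberg adjustment, and fold changes from these fits understate the change of low genes. A gene was called where the adjusted p did not exceed 0.05 and the log2 fold change was 0.32 or more in size. In whole larvae, fewer cells of a type and less RNA per cell cannot be told apart.

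The targeted gene, sox10, was listed at 11.2, 9.14 and 6.61 TPM in the mutants and at 9.47, 14.0 and 11.7 TPM in the wild types at 45 hpf, and at 5.77, 8.41 and 6.39 TPM in the mutants and 7.33, 5.25 and 6.02 TPM in the wild types in the 4 dpf table, so its transcript does not mark the genotype. Summed pigment cell markers did, at 208 to 314 TPM in mutants and 388 to 514 TPM in wild types at 45 hpf, and at 28.9 to 63.4 TPM in mutants and 113 to 162 TPM in wild types at 4 dpf. Of the 6 markers, 3 were lower in all mutants at 45 hpf and 5 at 4 dpf, beside 23.7% and 42.8% of all tested genes. A total of 16 genes above 10000 TPM in any library took 12.5% to 27.9% of the TPM in mutants and 11.7% to 17.2% in wild types at 45 hpf, and 25.8% to 42.5% in mutants and 17.6% to 20.4% in wild types at 4 dpf. The highest shares belonged to mutant replicate 3 at 45 hpf and mutant replicate 1 at 4 dpf. The median log2 fold change of all tested genes was -0.25 at 45 hpf and -0.33 at 4 dpf. These medians moved to 0.0036 and 0.035 after median-of-ratios rescaling of the libraries, and rescaled values are given beside those from the deposited TPM.

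In sox10 mutants at 45 hpf, stc1l was higher than in wild types and was the only calcium gene called. At 4 dpf pth1a was called higher in mutants, while pth2 and calcr were called lower. The paper that reported these data tested 4 dpf mutants with DESeq2, another method, and called far fewer genes than the main fit here. It listed stc1l as significantly higher, with a larger fold change than here. It also found this gene higher at 4 dpf by rt-PCR and in situ hybridization. From 45 hpf to 4 dpf it counted more cells expressing the gene in mutants, and it ascribed the increase at least partly to them. None of pth1a, pth2 and calcr was significant there. The fold change of pth1a was positive, as here, and those of pth2 and calcr were small and positive. The stage of the values here cannot be told, so the paper's result may also rest on another stage or on other libraries. By in situ hybridization the paper saw the stc1l increase begin to level out by 7 dpf. Why the results differ was not tested. Here, calls were made for 1 of 7 calcium genes tested at 45 hpf, where 0.557% of all 17043 tested genes were called, and for 3 of 8 in the 4 dpf table, where 20.3% of 17291 were. The gene called at 45 hpf, stc1l, was tested only through the mutants, so it had to differ to be tested. Members were also chosen with earlier results of these data known, so the counts only describe the set. By direction, 0.0587% of tested genes were called higher and 0.499% lower in mutants at 45 hpf, and 1.56% were called higher and 18.8% lower at 4 dpf. All mutant libraries lay above all wild types for stc1l and pth1a at both stages, an order that 1.94% of tested genes showed at 45 hpf and 5.96% at 4 dpf. All mutant libraries lay below all wild types for pth1b, pth2, calcr and vdrb at 4 dpf, as for 42.8% of tested genes, whereas at 45 hpf 0 of the 7 did so, beside 23.7% of tested genes. For vdrb at 4 dpf, tested only through the wild types, and for stc1l at 45 hpf, the order was fixed by entry to the test.

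**Figure D1:**
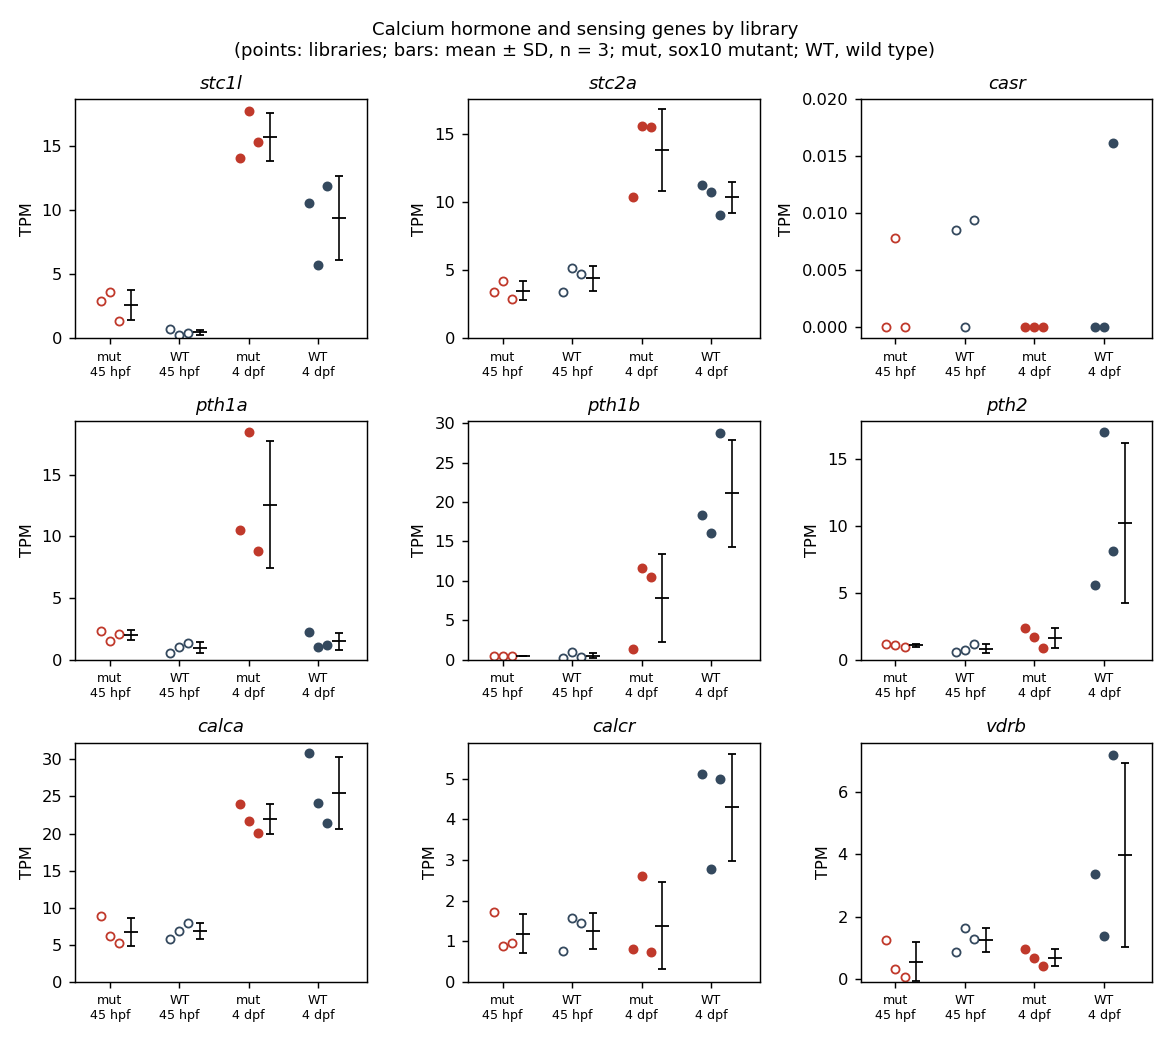
TPM of the 9 calcium genes found (y axis, linear, with its own range for each gene) in sox10 mutants and wild types at 45 hpf (open points) and in the 4 dpf table (filled points), each point a library and each bar the mean ± SD of 3 libraries, except for casr, where only libraries are shown. The 3 mutant libraries lie above the 3 wild types for stc1l and pth1a at both stages, and below them for pth1b, pth2, calcr and vdrb at 4 dpf.

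The gene stc1l (ENSDARG00000058476) encodes the stanniocalcin 1 of the corpuscles of Stannius. At 45 hpf it stood at 2.87, 3.58 and 1.32 TPM in the mutant libraries and at 0.672, 0.254 and 0.388 TPM in the wild types. The groups did not overlap, and the lowest mutant was replicate 3. The means of 2.59 ± 1.15 TPM in mutants and 0.438 ± 0.214 TPM in wild types (SD, n = 3 each) stood at a ratio of 5.91, and the fit gave 1.27 on the log2(TPM + 1) scale (standard error 0.25, adjusted p = 0.0419 in limma). It entered the fit only through the mutants, as every wild type was below 1 TPM, so the call belongs to a gene that had to differ to be tested. The call was lost after rescaling (log2 fold change 1.40, adjusted p = 0.0513 in limma), with no filter on low genes (adjusted p = 0.162 in limma) and without mutant replicate 2 (log2 fold change 1.07, adjusted p = 0.113 in limma), whereas the log2 fold change was 1.56 without mutant replicate 3.

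At 4 dpf stc1l was listed at 14.1, 17.7 and 15.3 TPM in mutants and at 10.5, 5.68 and 11.9 TPM in wild types. Again no mutant fell within the wild-type range, and wild-type replicate 2 was the lowest library. Means were 15.7 ± 1.86 TPM in mutants and 9.36 ± 3.26 TPM in wild types, a log2 fold change of 0.74 that missed the threshold (standard error 0.26, adjusted p = 0.0754 in limma), or 1.15 after rescaling (adjusted p = 0.0554 in limma). Of the alternatives, 1 called stc1l at 4 dpf (adjusted p = 0.0470 in limma) and 13 did not. The order of the levels was mutants at 4 dpf, wild types at 4 dpf, mutants at 45 hpf and wild types at 45 hpf, with no overlap between neighbours. The genotype difference itself did not differ detectably between the tables (log2 difference -0.53, 95% confidence interval -1.40 to 0.33, adjusted p = 0.540 in limma).

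The other stanniocalcin gene of the set, stc2a (ENSDARG00000056680), whose mammalian counterpart inhibits the PAPP-A protease that cleaves IGF-binding proteins, did not separate the genotypes. It was listed at 3.35, 4.23 and 2.88 TPM in mutants and at 3.37, 5.15 and 4.69 TPM in wild types at 45 hpf. In the 4 dpf table it was at 10.4, 15.6 and 15.6 TPM in mutants and at 11.3, 10.7 and 9.10 TPM in wild types. Mutants and wild types overlapped at both stages, with 2 mutants above every wild type at 4 dpf. The log2 fold change was -0.26 at 45 hpf (adjusted p = 0.454 in limma) and 0.37 at 4 dpf (adjusted p = 0.187 in limma, or 0.0554 after rescaling, where it was 0.77). At 4 dpf stc2a was called in 1 of the alternatives (adjusted p = 0.0478 in limma) and not in 13 others.

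Of the parathyroid hormone genes, pth1a and pth1b are duplicates of a single ancestral gene in fish. At 45 hpf pth1a (ENSDARG00000093738) was listed at 2.32, 1.56 and 2.13 TPM in mutants and at 0.530, 1.06 and 1.38 TPM in wild types. Every mutant was above every wild type, but the log2 fold change of 0.61 did not pass the threshold (adjusted p = 0.168 in limma) unless mutant replicate 1 was left out (0.53, adjusted p = 0.0416 in limma), when 31.6% of all genes passed. At 4 dpf pth1a stood at 10.5, 18.4 and 8.78 TPM in mutants and at 2.25, 1.02 and 1.22 TPM in wild types. The lowest mutant had several times the TPM of the highest wild type, and the means of 12.6 ± 5.14 TPM in mutants and 1.50 ± 0.663 TPM in wild types stood at a ratio of 8.40. On the log2 scale the fit gave 2.41 (standard error 0.30, adjusted p = 0.0368 in limma), and it was 2.74 after rescaling (adjusted p = 0.0206 in limma). The call was lost when mutant replicate 1 was left out (log2 fold change 2.50, adjusted p = 0.114 in limma). It was also lost without mutant replicate 3 or wild-type replicate 1 or 3, when the log2 fold change stayed between 2.34 and 2.62 and the adjusted p in limma lay between 0.113 and 0.165. These fits with a library left out passed 0.0121% to 0.0583% of all genes, so the loss was not particular to pth1a. Of all the alternatives, 8 kept the call and 6 lost it.

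The paralog pth1b (ENSDARG00000091961) was below 1 TPM in all 6 libraries at 45 hpf, at 0.478, 0.483 and 0.523 TPM in mutants and 0.291, 0.949 and 0.379 TPM in wild types, and did not enter the test. In the 4 dpf table it was at 1.39, 11.6 and 10.5 TPM in mutants and at 18.4, 16.1 and 28.8 TPM in wild types. Mutant replicate 1 was far below the other mutants, which were themselves below every wild type. The log2 fold change of -1.61 did not pass the threshold (standard error 0.62, adjusted p = 0.0930 in limma), and it was -0.83 without mutant replicate 1 (adjusted p = 0.117 in limma). Without mutant replicate 2 it passed, at -2.03 (adjusted p = 0.0363 in limma), as did 36.1% of all genes in that fit.

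Set against each other within a library, the paralogs divided the genotypes in the 4 dpf table. The share of pth1a in the summed TPM of the pair was 88.3%, 61.3% and 45.5% in mutants and 10.9%, 5.95% and 4.06% in wild types. pth1b was the more abundant of the pair in all 3 wild types and in mutant replicate 3, and pth1a in the other mutants. The log2 ratio of pth1a to pth1b, with 1 TPM added to each, averaged 0.88 ± 1.27 in mutants and -3.14 ± 0.59 in wild types (SD, n = 3 each). A two-sided exact permutation test returned p = 0.1, which is the lowest it can reach with 3 libraries a genotype, and 0.2 after adjustment over the 4 tests of the pair. All mutants were above all wild types for pth1a and below them for pth1b. The ratio therefore had to separate the genotypes, and its p adds nothing to those orders. The summed TPM of the pair was 11.9, 30.0 and 19.3 in mutants and 20.7, 17.1 and 30.0 in wild types, and these groups overlapped (two-sided exact permutation test, p = 0.8).

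At 45 hpf the pair was at low levels in both genotypes. The share of pth1a was 83.0%, 76.3% and 80.3% in mutants and 64.5%, 52.7% and 78.4% in wild types, so that pth1a was the more abundant of the pair in all 6 libraries, and the groups overlapped in this share (exact permutation test of the log2 ratio, p = 0.2). The summed TPM was 2.80, 2.04 and 2.65 in mutants and 0.821, 2.01 and 1.76 in wild types, a narrow gap with p = 0.1 in the exact permutation test.

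**Figure D2:**
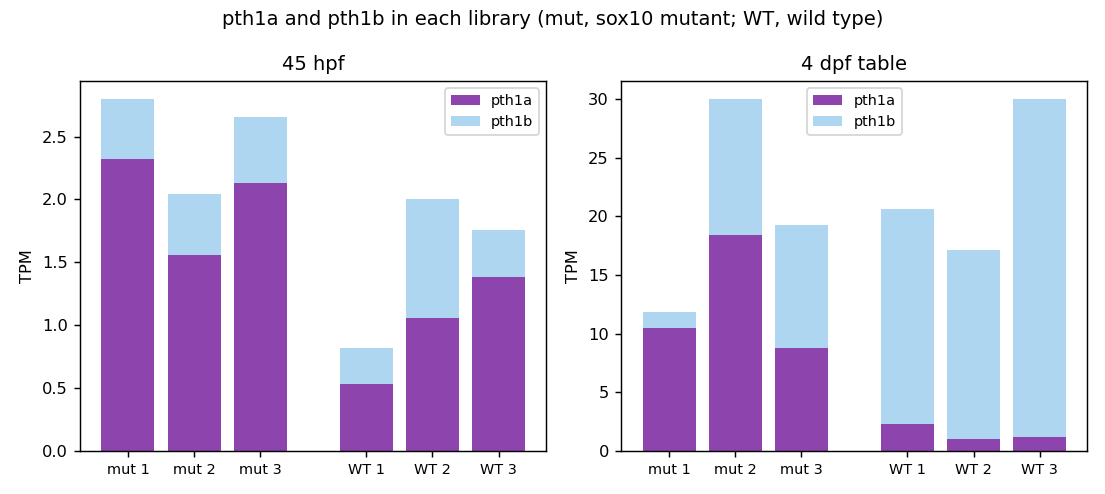
Stacked TPM of pth1a and pth1b (y axis) in each mutant and wild-type library at 45 hpf and in the 4 dpf table, on axes with different ranges. At 45 hpf pth1a is the larger part in every library; at 4 dpf it takes 45.5% to 88.3% of the pair in mutants and 4.06% to 10.9% in wild types.

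The third parathyroid hormone gene, pth2 (ENSDARG00000022951), encodes a neuropeptide of the brain known in mammals as tuberoinfundibular peptide. It was listed at 1.19, 1.08 and 0.968 TPM in mutants and at 0.577, 0.755 and 1.19 TPM in wild types at 45 hpf, with overlap between the groups (log2 fold change 0.19, adjusted p = 0.521 in limma). In the 4 dpf table it was at 2.36, 1.67 and 0.894 TPM in mutants and at 5.57, 16.97 and 8.09 TPM in wild types. All mutants were below all wild types, which themselves spread widely, and the means were 1.64 ± 0.735 TPM in mutants and 10.2 ± 5.99 TPM in wild types. On the log2 scale the fit gave -1.99 (standard error 0.39, adjusted p = 0.0431 in limma) and -1.65 after rescaling, when it missed the threshold (adjusted p = 0.0588 in limma). Of the alternatives, 4 kept the call and 10 lost it. Without mutant replicate 1 the log2 fold change was -2.19 (adjusted p = 0.114 in limma). Without mutant replicate 3 or wild-type replicate 1 or 3 the call was lost too, at adjusted p between 0.129 and 0.165 in limma. These fits with a library left out called 0.0121% to 0.0583% of all genes, and the rescaled fit called 0.239%.

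The calcitonin gene calca (ENSDARG00000056590), which gives calcitonin and the calcitonin gene-related peptide by alternative splicing in mammals, was the most abundant of the set. It was listed at 8.90, 6.13 and 5.26 TPM in mutants and 5.73, 6.79 and 7.99 TPM in wild types at 45 hpf, and at 24.0, 21.7 and 20.1 TPM in mutants and 30.9, 24.2 and 21.4 TPM in wild types at 4 dpf. Genotypes overlapped at both stages, and the 95% confidence interval of the log2 fold change was -0.53 to 0.46 at 45 hpf and -0.60 to 0.21 at 4 dpf. The tables give a single value per gene, so the peptides are not told apart.

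The calcitonin receptor gene calcr (ENSDARG00000028845) was at 1.73, 0.875 and 0.948 TPM in mutants and at 0.748, 1.57 and 1.45 TPM in wild types at 45 hpf, with overlap (log2 fold change -0.05, adjusted p = 0.898 in limma). In the 4 dpf table it was at 0.805, 2.62 and 0.730 TPM in mutants and at 5.12, 2.78 and 4.99 TPM in wild types. Mutant replicate 2 came close to the lowest wild type, and the other mutants were well below it. Means were 1.38 ± 1.07 TPM in mutants and 4.30 ± 1.31 TPM in wild types, and the log2 fold change of -1.21 passed the threshold narrowly (standard error 0.34, adjusted p = 0.0472 in limma). Of the alternatives, 2 kept the call and 11 lost it. Each alternative setting that tested calcr with all libraries lost the call (adjusted p between 0.0511 and 0.120 in limma). The log2 fold change was -0.92 after rescaling (adjusted p = 0.0702 in limma) and -1.05 without mutant replicate 1 (adjusted p = 0.133 in limma). The call was also lost without mutant replicate 3 or wild-type replicate 1 or 3 (adjusted p between 0.136 and 0.168 in limma). These fits with a library left out called 0.0121% to 0.0583% of all genes, and the rescaled fit called 0.239%. Summed markers of neurons, a tissue in which calcr is expressed in mammals, stood at 920 to 1018 TPM in mutants and 998 to 1126 TPM in wild types at 4 dpf. Of the 5 markers 1 was lower in all mutants than in all wild types, beside 42.8% of tested genes. The part of neurons in the result was not tested.

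The vitamin D receptor gene vdrb (ENSDARG00000070721) encodes a nuclear receptor that acts with a retinoid X receptor. At 45 hpf it was at 1.26, 0.326 and 0.0853 TPM in mutants and at 0.859, 1.63 and 1.30 TPM in wild types. The mutants spread widely, and replicate 1 was within the wild-type range (log2 fold change -0.60, adjusted p = 0.212 in limma). Without that library the log2 fold change was -0.90 and passed the threshold (adjusted p = 0.000676 in limma, over the same tested genes), as did 30.9% of all genes in that fit. At 4 dpf vdrb was at 0.954, 0.686 and 0.413 TPM in mutants and at 3.36, 1.40 and 7.18 TPM in wild types. No mutant reached 1 TPM, so the gene was tested only through the wild types, and the log2 fold change of -1.40 just missed the threshold (standard error 0.42, adjusted p = 0.0529 in limma). It passed without wild-type replicate 2 (-1.84, adjusted p = 0.0208 in limma, over the same tested genes, of which 21.9% passed), and was -0.95 without wild-type replicate 3, the highest library.

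The calcium-sensing receptor gene casr was close to 0 throughout. At 45 hpf it was listed at 0, 0.0078 and 0 TPM in mutants and at 0.0085, 0 and 0.0094 TPM in wild types, and in the 4 dpf table at 0 TPM in all mutants and at 0, 0 and 0.016 TPM in wild types. The genotypes overlapped in both tables (two-sided exact permutation test, p = 0.4 at 45 hpf and p = 1 at 4 dpf), and a listed 0 does not show absence, since the number of reads behind it is unknown.

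**Figure D3:**
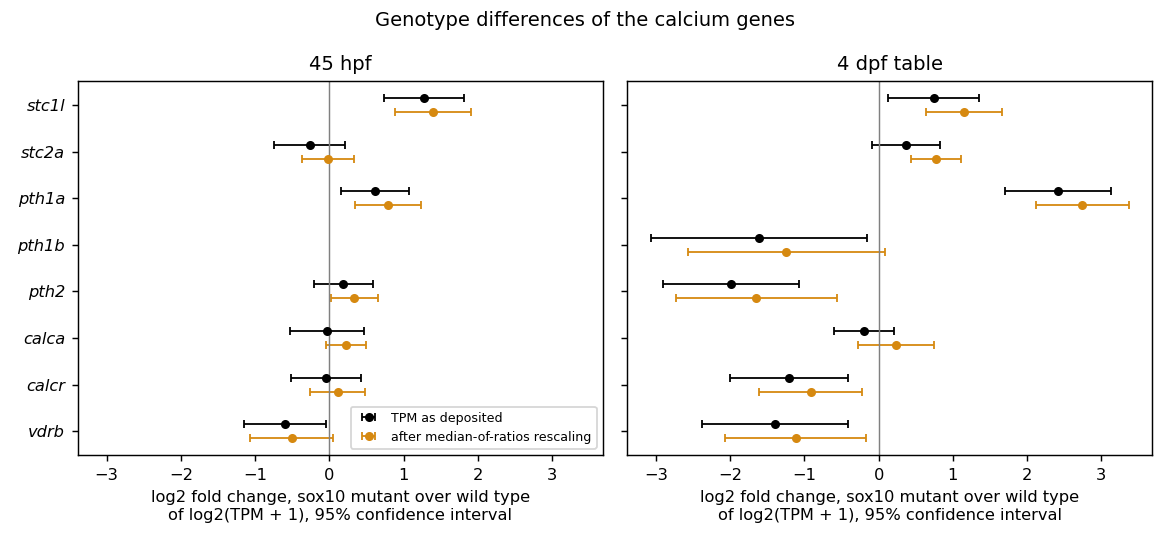
Log2 fold change of sox10 mutants over wild types on the log2(TPM + 1) scale (x axis) with 95% confidence intervals for each calcium gene tested, at 45 hpf (left) and in the 4 dpf table (right), from the deposited TPM (black) and after median-of-ratios rescaling (orange). Rescaling moves each gene to the right, pth1a stays the furthest above 0 at 4 dpf, and pth1b, below 1 TPM at 45 hpf, has a value only at 4 dpf.

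Levels were next compared between the tables in a single fit of all 12 libraries. In mutants 5 of 8 calcium genes were called higher in the 4 dpf table than at 45 hpf and 3 were not called, where 63.6% of 17403 tested genes were called in either direction, 20.7% higher and 42.9% lower. In wild types 7 of 8 were called higher, where 63.4% of genes were called, 25.5% higher and 37.9% lower. These changes set side by side 2 tables that also differ in whatever separated their preparation, and stage and table cannot be told apart.

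Both stanniocalcins and calcitonin were called higher at 4 dpf in both genotypes. The log2 change of stc1l was 2.27 in mutants and 2.80 in wild types, that of stc2a was 1.72 in mutants and 1.08 in wild types, and that of calca was 1.59 in mutants and 1.75 in wild types, each with a standard error of 0.20 to 0.28. Among parathyroid hormones, pth1b was called higher in both genotypes, with log2 changes of 2.23 in mutants and 3.83 in wild types (standard error 0.49 each). It was below 1 TPM in all 6 libraries at 45 hpf and entered this fit only through the 4 dpf table, so it had to differ to be tested, and without it the counts are 4 of 7 in mutants and 6 of 7 in wild types. The other members of the family were called in a single genotype each. For pth1a the log2 change was 2.12 in mutants (adjusted p = 2.64e-05 in limma) and 0.32 in wild types (adjusted p = 0.323 in limma). For pth2 it was 0.31 in mutants (adjusted p = 0.410 in limma) and 2.49 in wild types (adjusted p = 1.95e-05 in limma).

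The receptors calcr and vdrb were called higher at 4 dpf in wild types and were not called in mutants. The log2 change of calcr was 0.06 in mutants (95% confidence interval -0.59 to 0.71) and 1.22 in wild types (0.57 to 1.87), and that of vdrb was 0.17 in mutants (-0.65 to 0.99) and 0.98 in wild types (0.15 to 1.80), where its call rested on single libraries (adjusted p up to 0.183 in limma with 1 library left out). Whether the changes differed between genotypes was tested by the interaction term, which called 0 of the 8 genes with limma and 0.264% of all genes (0.144% positive and 0.121% negative). At an unadjusted p of at most 0.05, where 15.1% of all genes stood, it took 5 of the 8: pth2 (log2 difference -2.18, adjusted p = 0.0702), pth1a (1.80, adjusted p = 0.0784), calcr (-1.16, adjusted p = 0.240), pth1b (-1.59, adjusted p = 0.311) and stc2a (0.63, adjusted p = 0.322), all in limma. After rescaling the difference of pth1a passed the threshold (log2 difference 2.08, adjusted p = 0.0308 in limma) and that of pth2 did not (-1.93, adjusted p = 0.0889 in limma).

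**Figure D4:**
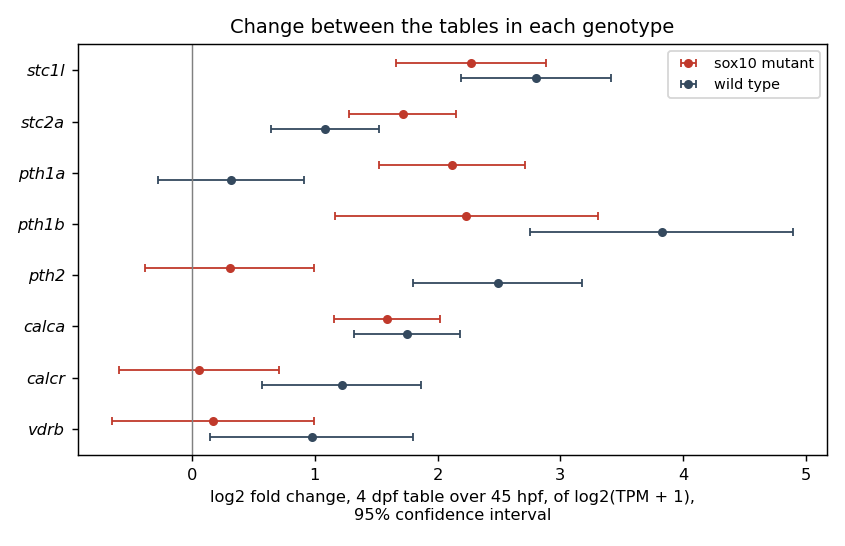
Log2 fold change of the 4 dpf table over 45 hpf on the log2(TPM + 1) scale (x axis) with 95% confidence intervals, in sox10 mutants (red, upper) and wild types (dark blue, lower), for the 8 calcium genes tested. The intervals of the genotypes are apart for pth1a and pth2; for pth1a the mutant interval alone leaves out 0, and for pth2, calcr and vdrb the wild-type interval alone does.

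Per transcript length, the order of the set also differed by group. At 45 hpf calca was the highest in both genotypes, and its mean lay above those of 67.0% of listed genes in mutants and 63.1% in wild types. At 4 dpf calca (mean 21.9 TPM in mutants and 25.5 TPM in wild types) was followed by stc1l, stc2a and pth1a in mutants, and by pth1b, stc2a and pth2 in wild types. The libraries of calca and stc1l did not overlap in mutants, whereas those of calca and pth1b overlapped in wild types. Those of stc1l, stc2a and pth1a overlapped in mutants. In wild types those of stc2a, pth2 and stc1l (mean 9.36 TPM) overlapped, so the order among these genes is not settled. The mean of pth1a lay above those of 81.5% of listed genes in mutants and 35.5% in wild types.

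Other genes of these pathways were taken from a list of 47, of which 42 were found and 16 were tested at 45 hpf and 20 at 4 dpf. At 45 hpf 0 were called with limma, with 3 at an unadjusted p of at most 0.05 (ramp1, rxrba and slc8a1b, lower in mutants) beside 21.2% of all tested genes, and the median log2 fold change was -0.20, against -0.25 for all tested genes. At 4 dpf 6 were called lower and 0 higher, with a median of -0.47, against -0.33 for all tested genes. The share of 6 in 20 stands beside the 20.3% of all genes given above. After rescaling 0 of 21 were called, beside 0.239% of all genes. The 6 include igf1ra, which was tested only through the wild types and so had to differ to be tested. Leaving out mutant replicate 1 or 3, or wild-type replicate 1 or 3, also left 0 called. These fits called 0.0121% to 0.0583% of all genes, so the loss was not particular to the list.

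Of the 6, 3 belong to the vitamin D list. cyp24a1, the enzyme that inactivates vitamin D and a known target of its receptor in vertebrates, was at 7.70, 12.9 and 14.0 TPM in mutants and at 29.8, 39.8 and 74.7 TPM in wild types at 4 dpf. Each mutant had less than the lowest wild type, and the log2 fold change was -1.91 (adjusted p = 0.0431 in limma), or -1.49 after rescaling (adjusted p = 0.0554 in limma). It was below 0.5 TPM in all 6 libraries at 45 hpf. The retinoid X receptors rxraa and rxrba, partners of the vitamin D receptor and of other nuclear receptors, had log2 fold changes of -0.88 and -1.64 at 4 dpf (adjusted p = 0.0431 each in limma). After rescaling these were -0.51 (adjusted p = 0.0598 in limma) and -1.28 (adjusted p = 0.0569 in limma). rxraa averaged 3.96 ± 0.821 TPM in mutants and 8.17 ± 1.68 TPM in wild types, and rxrba averaged 3.15 ± 1.85 TPM in mutants and 11.9 ± 4.93 TPM in wild types (SD, n = 3 each).

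From the calcitonin list, ramp1, which encodes a partner protein of calcitonin-type receptors, was at 3.35, 7.41 and 3.41 TPM in mutants and at 14.3, 10.2 and 15.6 TPM in wild types at 4 dpf. The log2 fold change was -1.38 (adjusted p = 0.0431 in limma), or -0.998 after rescaling (adjusted p = 0.0555 in limma). The mutants that were lowest in calcr, replicates 1 and 3, were also the lowest here. They were also the lowest mutants for rxraa, rxrba, igf1ra and slc8a1b, though not for cyp24a1, so this order is not particular to ramp1 and calcr. In these libraries the genes above 10000 TPM took 42.5% and 29.7% of the TPM, against 25.8% in mutant replicate 2. The part of this in the order was not tested. igf1ra, a receptor for insulin-like growth factor, averaged 0.466 ± 0.236 TPM in mutants and 2.45 ± 1.39 TPM in wild types (log2 fold change -1.17, adjusted p = 0.0433 in limma). Its rescaled log2 fold change was -0.96 (adjusted p = 0.0583 in limma). All 3 mutants were below 1 TPM, so igf1ra was tested only through the wild types and had to differ to be tested. slc8a1b, a sodium and calcium exchanger, averaged 0.994 ± 0.663 TPM in mutants and 4.01 ± 1.81 TPM in wild types (log2 fold change -1.31, adjusted p = 0.0440 in limma). Its rescaled log2 fold change was -1.04 (adjusted p = 0.0598 in limma).

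Both trpv6 and igfbp5a stayed below 1 TPM in all 12 libraries and did not pass the filter. trpv6, the epithelial calcium channel of skin ionocytes, was at 0.296, 0.154 and 0.105 TPM in mutants and at 0.182, 0.114 and 0.0728 TPM in wild types at 45 hpf, and at 0.107, 0.247 and 0.442 TPM in mutants and 0.556, 0.178 and 0.378 TPM in wild types at 4 dpf. igfbp5a, which encodes an IGF-binding protein of the same ionocytes, was at 0.0943, 0.584 and 0.0764 TPM in mutants and at 0.517, 0.785 and 0.882 TPM in wild types at 4 dpf. Both overlapped between genotypes, and without the filter their differences at 4 dpf did not pass the threshold (log2 fold change -0.11 for trpv6, adjusted p = 0.565 in limma, and -0.48 for igfbp5a, adjusted p = 0.0952 in limma). By in situ hybridization at 4 dpf the paper counted significantly fewer cells with trpv6 or igfbp5a in mutants. Its rt-PCR of whole bodies found no overt change of trpv6. stc1, the other stanniocalcin 1 gene, was under 0.2 TPM in all 12 libraries. pth4, made by neurons of the hypothalamus in zebrafish, also overlapped, at 4.05, 3.55 and 3.29 TPM in mutants and 5.02, 3.95 and 3.61 TPM in wild types at 45 hpf, and at 0.908, 0.782 and 0.140 TPM in mutants and 2.94, 0.430 and 3.74 TPM in wild types at 4 dpf.

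**Figure D5:**
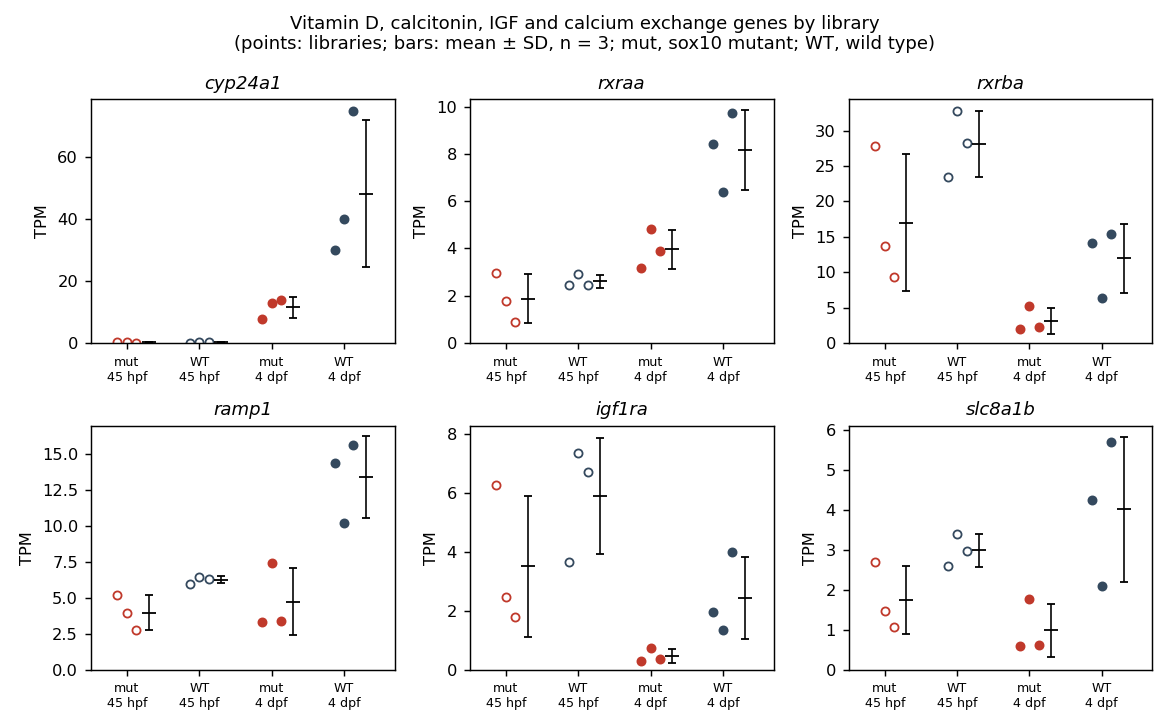
TPM of the 6 other pathway genes called lower in mutants at 4 dpf (y axis, linear, own range for each gene) in sox10 mutants and wild types at 45 hpf (open points) and in the 4 dpf table (filled points), each point a library and each bar the mean ± SD of 3 libraries. At 4 dpf every mutant lies below every wild type for these genes, which were chosen by that test.

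The genes most like the 4 members called between genotypes, across all 12 libraries, were named by the Pearson correlation of log2(TPM + 1), as a description, since the libraries share 2 stages and 2 genotypes. The nearest to stc1l was slc12a3 (r = 0.985), the sodium chloride cotransporter of the distal pronephros, followed by fscn1b (0.952) and zgc:153441 (0.951). slc12a3 was listed at 0.969, 0.964 and 0.822 TPM in mutants and at 0.400, 0.207 and 0.216 TPM in wild types at 45 hpf, and at 2.21, 3.11 and 2.94 TPM in mutants and 2.00, 1.76 and 2.75 TPM in wild types at 4 dpf, so that its genotypes were apart at 45 hpf and overlapped at 4 dpf. The 3 pronephros markers, slc12a3 among them, overlapped between genotypes when summed. At 45 hpf they stood at 2.77 to 6.11 TPM in mutants and 3.11 to 3.59 TPM in wild types. The 1 marker higher in all mutants was slc12a3 itself, an order that its likeness to stc1l favours. It was below 1 TPM in every library at this stage and so not among the tested genes, of which 1.94% showed this order. At 4 dpf they stood at 5.01 to 9.82 TPM in mutants and 7.39 to 9.59 TPM in wild types, with 1 lower in all mutants, as were 42.8% of tested genes. Nearest to pth1a were gzm3.3 (0.935), cldn8.3 (0.907) and sord (0.886), and nearest to pth2 were nfil3-6 (0.936), lgmn (0.927) and bcan (0.920). Nearest to calcr were slc17a7a (0.991) and slc6a1a (0.982), transporters of glutamate and GABA in neurons, and rnf122 (0.980). In the 4 dpf table slc17a7a averaged 2.10 ± 2.59 TPM in mutants and 12.5 ± 4.37 TPM in wild types. There slc6a1a averaged 7.65 ± 7.29 TPM in mutants and 35.0 ± 17.1 TPM in wild types, with overlap. Their pick by likeness to calcr favours lower values in mutants.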

How the data were processed

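RNA was sequenced from pools of whole sox10 mutant and wild-type larvae as stranded poly-A libraries with paired ends. Per the submitters' processing notes, reads were trimmed with Trimmomatic 0.39 and quantified with kallisto (version not given in the sources used here) against GRCz 11, and the authors deposited gene-level TPM without read counts. The tables for 45 hpf and 4 dpf were used, with 12 libraries, since that for 7 dpf repeats the 4 dpf values. Of 25896 lines, 315 that repeated a gene under another symbol were removed.

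Values were analysed as log2(TPM + 1) with limma 3.58.1 (lmFit, eBayes with trend) in R 4.3.3, fitted on all genes at 1 TPM or more in at least 3 of 6 libraries, or 6 of 12 for changes between tables. A call needed a Benjamini-Hochberg adjusted p of at most 0.05 and a log2 change of 0.32 or more in size. The script was tested on simulated data. Paralog ratios were compared by two-sided exact permutation tests in Python 3.11.15 with scipy 1.17.1. Members and pathway lists were chosen with earlier results of these data known. All members were described, and other pathway genes were named if called in mutants against wild types or listed for calcium uptake. The alternatives were another pseudocount, filters, scalings, a replicate block and leaving out single libraries. Gene positions and sequences are not given, since a genome of the files' build was not used here.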

Additional observations from a re-analysis of the deposited data

How the results depend on the processing

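Among alternative values for single calcium genes, 592 kept their direction and side of the threshold, 41 lost and 13 gained the call, and 24 changed sign; the values that changed sign were not called, and the cause was not tested. Genes called between genotypes at 45 hpf (95) numbered 61 without a filter, 44 with a mean of at least 5 TPM and 34 to 5281 with a library left out (5281 without mutant replicate 1). At 4 dpf (3518) they numbered 53 with a pseudocount of 0.1, 20 without a filter, 1487 with a mean of at least 5 TPM, 41 after median-of-ratios rescaling, 1653 after quantile normalization, 48 with genes above 10000 TPM removed (chosen after seeing the data) and 2 to 6131 with a library left out (6131 without mutant replicate 2). Genes whose genotype effect differed between tables (46) numbered 23 with a pseudocount of 0.1, 683 after quantile normalization, 30 with robust eBayes, 224 with genes above 10000 TPM removed and 11 to 792 with a library left out. Calcium genes called at 45 hpf (1) fell to 0 with a pseudocount of 0.1, without a filter, with a mean of at least 5 TPM, after median-of-ratios rescaling and with genes above 10000 TPM removed, and ranged over 0 to 1 with a library left out. At 45 hpf stc1l was below a mean of 5 TPM and so was not tested with that filter. At 4 dpf (3) they numbered 1 with a pseudocount of 0.1, 0 without a filter, 1 after median-of-ratios rescaling, 1 with genes above 10000 TPM removed and 0 to 4 with a library left out. With a mean of at least 5 TPM, 4 calcium genes were called for the change between tables in wild types, against 7 in the main fit. The others called there, pth2, calcr and vdrb, were below that mean and were not tested. Calcium genes whose genotype effect differed between tables (0) numbered 1 after median-of-ratios rescaling, 1 after quantile normalization, 1 with genes above 10000 TPM removed and 0 to 3 with a library left out. Other pathway genes called numbered 0 to 5 at 45 hpf (0) with a library left out, and at 4 dpf (6) they numbered 0 after median-of-ratios rescaling and 0 to 8 with a library left out. The log2 fold change of stc2a at 45 hpf was 0.032 after quantile normalization. That of calca at 45 hpf was 0.23 after median-of-ratios rescaling, 0.27 after quantile normalization, 0.055 with genes above 10000 TPM removed and -0.22 to 0.11 with a library left out, and at 4 dpf it was 0.23, 0.16 and 0.065 in the same order of settings. That of calcr at 45 hpf was 0.11 after median-of-ratios rescaling, 0.18 after quantile normalization, 0.0076 with genes above 10000 TPM removed and -0.22 to 0.051 with a library left out, or -0.22 to 0.057 over the genes tested with all libraries (0.021 without wild-type replicate 3). With a library left out, the change between tables in mutants was -0.28 to 0.25 for calcr and -0.053 to 0.29 for vdrb, or 0.17 to 0.48 over the genes tested with all libraries. The difference between tables for calca was 0.084 after median-of-ratios rescaling, 0.023 with genes above 10000 TPM removed and -0.30 to 0.027 with a library left out. The ratio of pth1a to pth1b kept its direction with each library left out, at 0.48 to 0.84 at 45 hpf and 3.33 to 4.58 at 4 dpf. At 4 dpf this direction was fixed by the separate orders of pth1a and pth1b. Same-numbered libraries of the genotypes did not deviate together (r = -0.31, -0.26 and -0.01 at 45 hpf, and -0.15, -0.61 and -0.38 at 4 dpf). The labels give them only a shared number, and values from 3 libraries a genotype cannot show whether they share a clutch or batch. With the replicate block the genes called numbered 737 at 45 hpf, 2 at 4 dpf and 22 for the difference between tables, the calcium genes called at 4 dpf numbered 0, and the other pathway genes called numbered 1 at 45 hpf and 0 at 4 dpf. The depth behind the TPM is unknown, which limits what can be said of genes listed near 0.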
